A study of Homo sapiens with 6 samples.

Results

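Glycolysis is the pathway that splits glucose into pyruvate in the cytosol, and many tumor cells run it at a high rate and reduce the pyruvate to lactate even when oxygen is present. Hexokinase traps glucose as a phosphate ester, phosphofructokinase makes the committed step, aldolase splits the sugar, and the later enzymes from GAPDH to pyruvate kinase recover ATP and NADH before lactate dehydrogenase regenerates NAD+. Several of these genes are known targets of the hypoxia-inducible factor HIF-1, and GAPDH is at the same time a usual reference gene of qPCR. The 10 genes described here are HK1, HK2, PFKP, PFKFB3, ALDOA, GAPDH, PGK1, ENO1, PKM and LDHA, which were taken by symbol from the 58174 genes of the files.

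SiHa is an established cell line of human squamous cervical carcinoma. The cells carried either the GV230-BRCA1 plasmid (OV-BRCA1 group, 3 samples) or the GV230 plasmid without the insert (NC group, 3 samples), both delivered by Lipofectamine, and mRNA was sequenced 48 h later to find genes whose expression differs with BRCA1 overexpression. The transfection was transient and in a single cell line, and the study calls the samples of a group biological replicates. No label states whether they were separate cultures, so the p-values measure the spread between these samples, which may be technical. Values are FPKM, the fragments of a transcript relative to its length and to the mapped fragments of the sample, summed over the transcripts of each gene. The depth (M fragments, estimated) of samples 1, 2 and 3 was 15.98, 16.6 and 14.04 for OV-BRCA1 and 15.96, 18.74 and 19.64 for NC.

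The FPKM of BRCA1 (chr17:43044295-43170245 of GRCh38) was 35.7, 40.8 and 34.9 in the OV-BRCA1 samples and 20.1, 14.9 and 21.7 in the NC samples. All OV-BRCA1 samples lay above all NC samples, in the direction of the labels, with a log2 fold change of 0.95 (SE 0.14, limma with Benjamini-Hochberg adjusted p = 0.003725). Among 11 squamous and epithelial markers, 7 were tested, and their whole list summed to 1804, 1710 and 1853 FPKM in the OV-BRCA1 samples and 2134, 2190 and 2102 FPKM in the NC samples. Of those tested, 4 passed as higher in the OV-BRCA1 group and 1 as lower (16.4% and 18.9% of all genes tested). EPCAM (log2 fold change 1.12, a DEG), KRT18 (0.39) and KRT8 (0.20, kept in 2 of the 6 fits without a sample) rose, as did KRT6A, which met the filter on low values only through the OV-BRCA1 samples, and KRT17 fell (-0.48). KRT17 was the most abundant, at 953 to 1442 FPKM, whereas the basal squamous markers KRT5, KRT14 and TP63 stayed below 1 FPKM in all 6 samples. Of the immune markers, PTPRC was listed at 0 in all samples, and the list was carried by CD68 and CD14, DEGs with log2 fold changes of 2.63 and -1.22. The 6 immune markers summed to 31.3, 34.1 and 37.2 FPKM against 24.0, 22.2 and 22.9 FPKM, the 3 endothelial markers to at most 1.45 FPKM in any sample and the 6 fibroblast markers to 3.31, 3.32 and 3.82 FPKM against 6.75, 6.73 and 6.15 FPKM. Most of the latter was COL1A1 (log2 fold change -0.79, limma, adjusted p = 0.001061), while VWF, DCN and LUM stood at 0 or close to it. In bulk samples such as these, fewer cells expressing a gene and less RNA per cell cannot be told apart.

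Between the groups, 3 of the 10 glycolysis genes passed an adjusted p of 0.05, and HK2, PFKP and PKM were all higher in the OV-BRCA1 group. Over all 16321 genes tested, 35.3% passed in either direction, 16.4% higher and 18.9% lower. The share of glycolysis genes that passed in either direction was near the background, and 10 genes are too few to compare the directions. HK2 was the only one of the 10 that was also a DEG (adjusted p below 0.05 and absolute log2 fold change above 1), a criterion passed by 3.99% of the genes tested, 2.89% in the higher direction. The groups did not overlap for 5 of the 10 genes (HK2, PFKP, PFKFB3, PGK1 and PKM), as against 50.8% of all genes tested. The 10 genes had a median log2 fold change of 0.17, and that of all genes tested was -0.04. The median of the 10 genes was 0.0587 without NC replicate 3 and 0.34 with protein-coding transcripts only. All 10 passed the filter on low values (FPKM 0.5 or more in 3 or more samples).

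**Figure D1:**
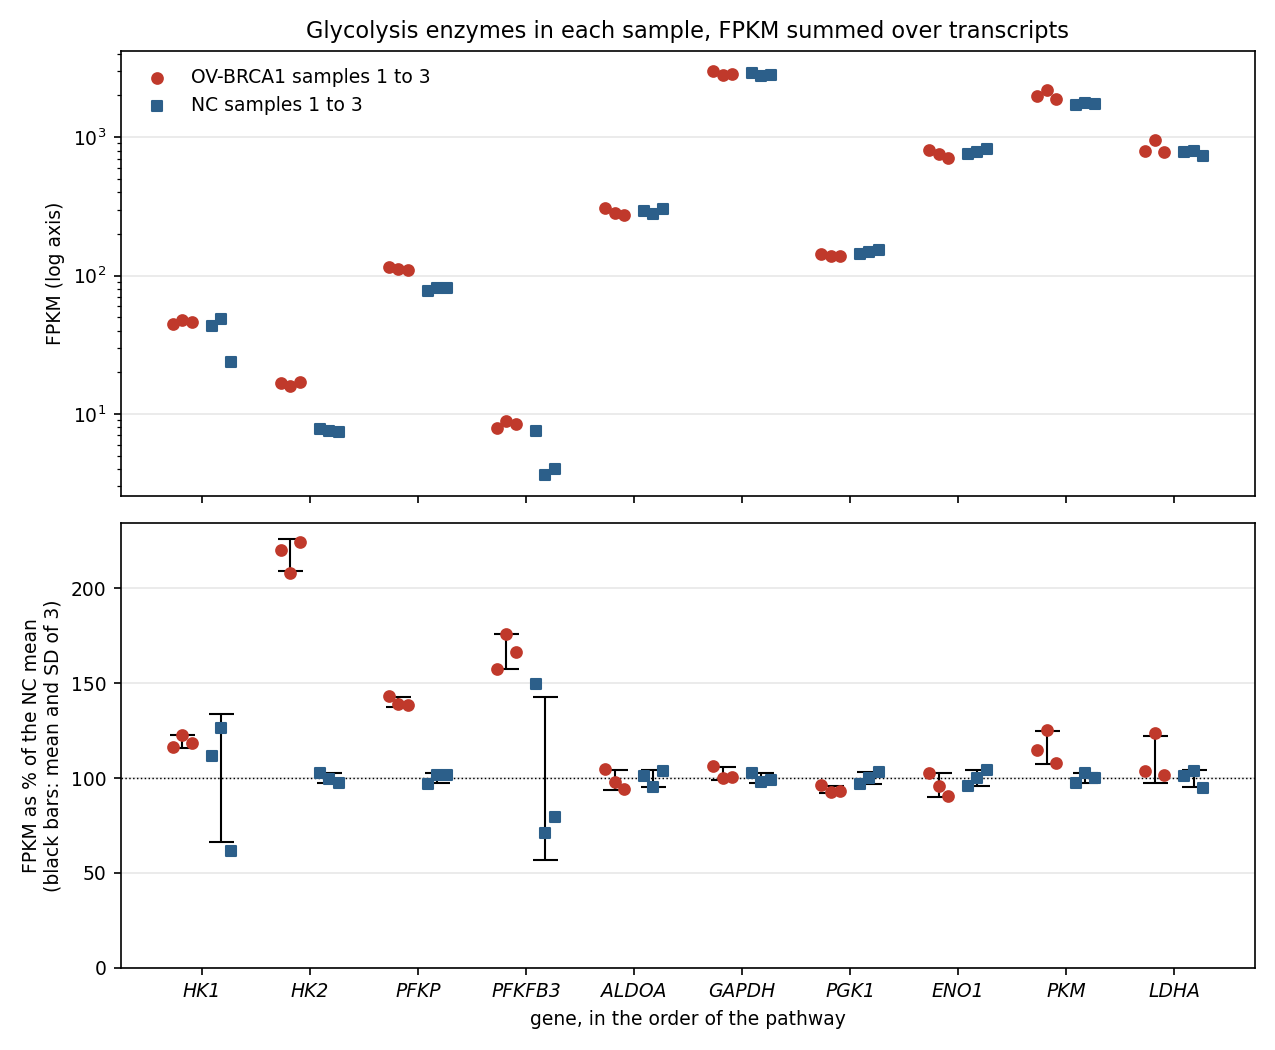
Each point is the summed FPKM of a gene in a sample, with OV-BRCA1 samples as red circles and NC samples as blue squares; the upper panel has a log axis and the lower panel gives the same values as percent of the NC mean of the gene, with black bars for the mean and SD of 3 samples. HK2 and PFKP separate clearly in the lower panel, NC sample 3 lies low for HK1, NC sample 1 lies high for PFKFB3, and GAPDH at 2777 to 3006 FPKM forms the tightest set.

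By level, the pathway spanned more than 2 orders of magnitude on the FPKM scale, which is per length and so allows a rough comparison of genes. The sums also depend on how fragments were divided between transcripts of different length, so the order of close ranks is not secure. GAPDH had the highest mean over the 6 samples at 2864 FPKM and ranked 13 among the 16321 genes tested, followed by PKM at 1874 (rank 21), LDHA at 805 (rank 50), ENO1 at 772 (rank 56), ALDOA at 290 (rank 176), PGK1 at 145 (rank 406) and PFKP at 95.9 (rank 659). The entry enzymes HK1 at 42.4 (rank 1760) and HK2 at 12.1 (rank 5773) and the regulatory enzyme PFKFB3 at 6.76 (rank 8110) were far lower. The ranges over the 6 samples overlapped only for the neighbors LDHA and ENO1 and for the neighbors HK2 and PFKFB3. Summed, the 10 genes came to 7234, 7316 and 6810 FPKM in the OV-BRCA1 samples and to 6710, 6706 and 6661 FPKM in the NC samples. GAPDH and PKM made up most of this sum.

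Hexokinase catalyzes the entry of glucose into the pathway. HK2 (ENSG00000159399, chr2:74833981-74893359) is an isozyme that is induced in many tumors. It stood at 16.8, 15.9 and 17.1 FPKM in the OV-BRCA1 samples and at 7.83, 7.58 and 7.42 FPKM in the NC samples. Every OV-BRCA1 sample was above every NC sample, and the gap was many times the spread within either group (16.6 ± 0.635 and 7.61 ± 0.204, SD, n = 3 each). The log2 fold change was 1.03 (SE 0.06, limma with Benjamini-Hochberg adjusted p = 0.0001082), and its 95% confidence interval of 0.88 to 1.18 included the threshold of 1. With scaling to nuclear protein-coding genes it was 0.99, so the DEG call ended there while the adjusted p of 0.0001117 from limma still passed. HK2 values rested on an estimated 715 to 1514 fragments per sample, and the transcript ENST00000290573, which held 96.5% of the FPKM of the gene, gave 1.04 on its own.

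HK1 (ENSG00000156515, chr10:69269984-69401884) is the hexokinase found in most tissues. Its FPKM was 45.0, 47.5 and 45.8 in the OV-BRCA1 samples and 43.2, 48.9 and 23.9 in the NC samples. NC sample 3 was low and the other 5 samples lay between 43.2 and 48.9. The log2 fold change of 0.31 did not pass the test (limma, adjusted p = 0.379), and without NC replicate 3 it was 0.00. In that sample the main transcript ENST00000359426 stood at 12.7 FPKM and made up 53.1% of the gene, as against 42.2 to 47.5 FPKM in the other samples. Of the sum of HK1 and HK2, HK2 made up 26.4 ± 1.23% in OV-BRCA1 samples and 17.5 ± 5.46% in NC samples (SD, n = 3 each), with NC sample 3 at 23.7%.

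The table of RefSeq promoters (GRCh38.p14) held windows for all 10 genes. HIF-1 is known to bind hypoxia response elements with the core ACGTG, which is CACGT when it lies on the other strand. Each window ends before a RefSeq start, and some GENCODE transcripts start within or ahead of it. The part of a window ahead of the first GENCODE exon in it is shown for HK2, which rose, and for PGK1 and LDHA, well-known HIF-1 targets that did not pass the test, on the plus strand with every match to the core on either strand in capitals. The PGK1 stretch lies inside the gene as annotated, ahead of the start of its main transcript.
HK2 chr2:74833877-74833980: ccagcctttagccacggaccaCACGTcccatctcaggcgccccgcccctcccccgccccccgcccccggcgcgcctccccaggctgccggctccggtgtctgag
PGK1 chrX:78103998-78104173: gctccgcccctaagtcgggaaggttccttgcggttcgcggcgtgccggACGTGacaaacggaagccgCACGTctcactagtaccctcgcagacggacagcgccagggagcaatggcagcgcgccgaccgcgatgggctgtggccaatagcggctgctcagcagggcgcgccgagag
LDHA chr11:18394313-18394387: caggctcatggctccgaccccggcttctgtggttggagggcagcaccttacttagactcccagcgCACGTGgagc

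The HK2 stretch held 1 match, and 7.17% of all 35116 windows held the core in the same stretch. PGK1 held 2 separate matches (12.4% of all windows for its stretch). LDHA held 2 matches that overlap in the palindrome CACGTG, which reads as the core on both strands (5.13% of all windows). In the whole windows of 250 bases, the 2 HK2 windows held 2 and 4 matches, the 2 LDHA windows 5 and 0, and the PGK1 window 2. These counts take both strands, so each palindrome counts as 2. Over the 250 bases before each RefSeq start, which include bases that GENCODE counts as transcribed, 10 of the 24 windows of the 10 genes held the core (41.7%), compared with 18.5% of all windows. At least 1 window matched in 7 of the genes, which include HK2 and PFKP, which rose, and GAPDH, ALDOA, PGK1, LDHA and PFKFB3, which did not pass the test. The share of all genes with a match in at least 1 window was not computed, so this count has no background. Each gene had 1 to 7 windows, and some windows of a gene overlap. The 24 windows are therefore not independent, and an excess of the core was not tested. No match was found in the windows of PKM, which rose, or of HK1 and ENO1, which did not pass. A match of 5 letters is a description of the sequence and not a binding site.

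Phosphofructokinase carries out the committed step of glycolysis, and PFKP (ENSG00000067057, chr10:3066333-3137712) encodes its platelet-type subunit. PFKP stood at 115, 111 and 110 FPKM in the OV-BRCA1 samples and at 77.4, 81.2 and 81.0 FPKM in the NC samples. All OV-BRCA1 samples exceeded all NC samples by far more than the spread (112 ± 2.19 and 79.8 ± 2.14, SD, n = 3 each). The log2 fold change was 0.48 (SE 0.04, limma with Benjamini-Hochberg adjusted p = 0.0005093). The rise was found in both main transcripts of the gene, at 60.6 ± 1.45 against 37.6 ± 2.09 FPKM for PFKP-203 and at 42.9 ± 0.566 against 35.2 ± 0.679 FPKM for ENST00000381072 (SD, n = 3 each). Tested on its own over all transcripts, the former passed (limma, adjusted p = 0.007235) and the latter did not (0.06446).

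The liver-type subunit gene PFKL moved the other way, from 62.6, 64.2 and 67.3 FPKM in the NC samples to 53.0, 44.4 and 48.6 FPKM in the OV-BRCA1 samples (log2 fold change -0.41, limma with Benjamini-Hochberg adjusted p = 0.007705). With the transcript of the highest mean in place of the sum, PFKL turned to 0.67 and passed as higher (limma, adjusted p = 0.02818), and with protein-coding transcripts only it was -0.69 and did not pass (limma, adjusted p = 0.3027). The PFKP, PFKL and PFKM genes together had 182 ± 5.66 FPKM in OV-BRCA1 samples and 167 ± 5.11 FPKM in NC samples. Within this pool PFKP held 61.5 ± 0.831% against 47.7 ± 0.735%, and PFKL held 26.7 ± 1.61% and 38.6 ± 0.362% (SD, n = 3 each). The shares of both subunits did not overlap between the groups.

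PFKFB3 (ENSG00000170525, chr10:6144934-6254644) makes fructose 2,6-bisphosphate, the allosteric activator of phosphofructokinase. Its FPKM was 7.98, 8.91 and 8.45 in the OV-BRCA1 samples and 7.57, 3.61 and 4.03 in the NC samples. NC sample 1 came close to the OV-BRCA1 samples, and the other NC samples were at most 4.03 FPKM. The log2 fold change of 0.69 (SE 0.23, 95% confidence interval 0.13 to 1.26) did not pass the adjusted p (limma, 0.061). It passed in 1 of the 6 fits without a sample, the fit without NC replicate 1 (0.97, limma, adjusted p = 0.002448). It did not pass without a filter (limma, adjusted p = 0.1415) or with a replicate block (limma, adjusted p = 0.08943). Neither median-of-ratios scaling (limma, adjusted p = 0.05464) nor scaling to nuclear protein-coding genes (0.07146) made it pass. With the transcript of the highest mean it was 0.62 and did not pass (limma, adjusted p = 0.676). With a length-weighted sum of the transcripts, an alternative added once the data were known, the value was 0.71 and passed (limma, adjusted p = 0.005674), and it also passed with protein-coding transcripts only (0.71, limma, adjusted p = 0.03162). PFKFB3 had the lowest level of the 10 genes, an estimated 217 to 382 fragments per sample, and the division between its 7 main transcripts differed from sample to sample. PFKFB4, which encodes a related enzyme, was lower in the OV-BRCA1 group (14.5 ± 0.893 against 19.8 ± 0.495 FPKM, log2 fold change -0.42, limma with Benjamini-Hochberg adjusted p = 0.004111). Of the PFKFB2, PFKFB3 and PFKFB4 sum, PFKFB3 held 32.3 ± 2.50% in OV-BRCA1 samples and 17.1 ± 5.76% in NC samples.

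**Figure D2:**
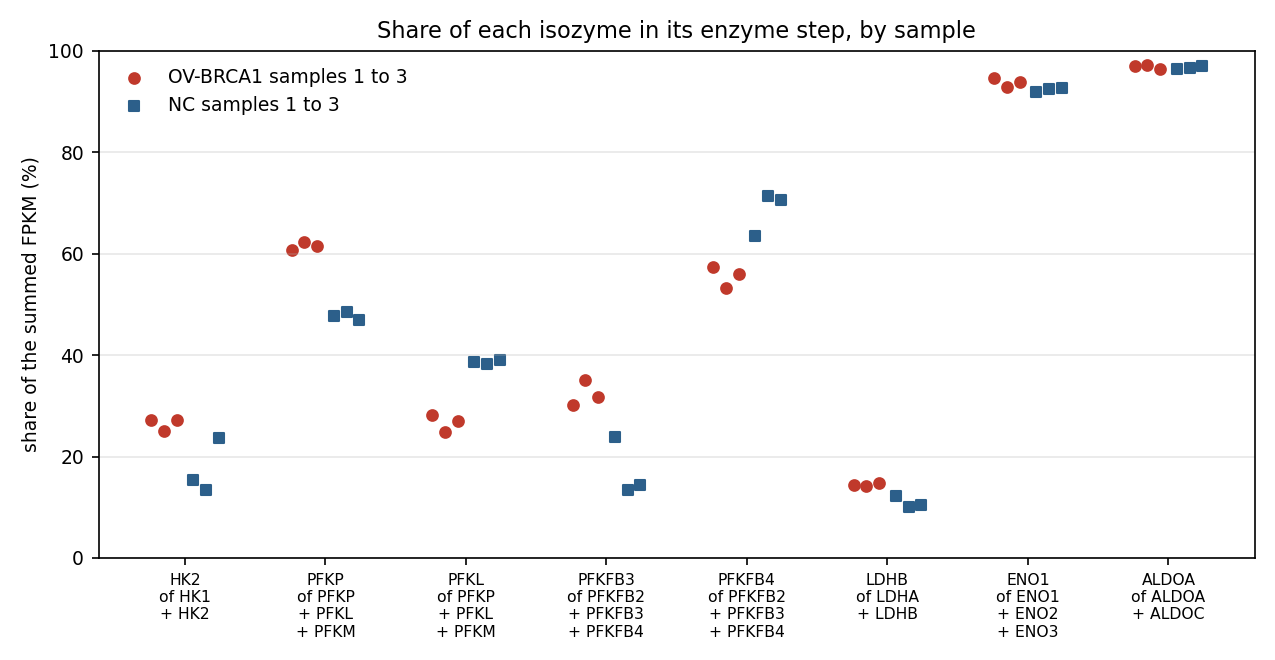
Each point is the share of a gene in the summed FPKM of the isozyme genes named under it (y axis, percent), in OV-BRCA1 samples (red circles) and NC samples (blue squares). PFKP lies at 60.7 to 62.4% in the OV-BRCA1 samples and 46.9 to 48.4% in the NC samples, PFKL mirrors it, and ENO1 and ALDOA hold over 90% of their step in all samples.

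Aldolase splits fructose 1,6-bisphosphate into a pair of triose phosphates. ALDOA (ENSG00000149925, chr16:30064164-30070457) had an FPKM of 305, 285 and 275 in the OV-BRCA1 samples and 295, 277 and 302 in the NC samples. The groups overlapped, and no difference was detected (log2 fold change -0.01, 95% confidence interval -0.15 to 0.12, limma, adjusted p = 0.8801; 0.02 with median-of-ratios scaling). ALDOA held 96.9 ± 0.458% of the aldolase FPKM (ALDOA and ALDOC) in OV-BRCA1 samples and 96.7 ± 0.374% in NC samples.

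GAPDH (ENSG00000111640, chr12:6533927-6538374) oxidizes glyceraldehyde 3-phosphate and reduces NAD+. It stood at 3006, 2834 and 2849 FPKM in the OV-BRCA1 samples and at 2914, 2777 and 2805 FPKM in the NC samples. The ranges of the groups overlapped, with the highest NC sample above 2 of the 3 OV-BRCA1 samples. The log2 fold change was 0.03 (SE 0.04, 95% confidence interval -0.07 to 0.13, limma with Benjamini-Hochberg adjusted p = 0.586), which as a ratio is between 0.954 and 1.10, and with scaling to nuclear protein-coding genes it was -0.01. With the transcript of the highest mean it was 0.28 (limma, adjusted p = 0.1416), and with protein-coding transcripts only -0.16 (limma, adjusted p = 0.1411). An estimated 60953 to 85395 fragments per sample lay behind these values. As a share of all FPKM in a sample, GAPDH made up 0.657, 0.618 and 0.617% in OV-BRCA1 samples and 0.606, 0.567 and 0.587% in NC samples, values that do not overlap. Transcripts of the mitochondrial genome took 14.8, 17.2 and 16.3% of it in the OV-BRCA1 samples and 21.9, 23.2 and 21.0% in the NC samples.

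GAPDH had the smallest coefficient of variation over the 6 samples, 2.91%, of 19 reference genes, followed by RPL13A (3.30%), YWHAZ (4.63%) and TUBB (6.50%). B2M (38.0%) and PPIB (36.9%) were among the genes that varied most. Among the 1388 protein-coding genes with a mean FPKM of at least 50, whose median coefficient of variation was 13.6%, GAPDH ranked 39, and 2.74% of these genes varied less. Of the 18 other reference genes, all tested, 4 rose and 4 fell in OV-BRCA1 samples (16.4% and 18.9% of all genes tested), with 0.09 as the median log2 fold change. This split depended on the scaling. With median-of-ratios scaling 6 rose and 2 fell, where 2957 of all genes rose and 2773 fell. With scaling to nuclear protein-coding genes 2 rose and 5 fell, where 2366 of all genes rose and 3475 fell. PPIB, a cyclophilin of the endoplasmic reticulum, was a DEG, at 711, 695 and 698 FPKM against 344, 348 and 352 FPKM (log2 fold change 1.01, limma with Benjamini-Hochberg adjusted p = 1.086e-05), and it was 0.97 and no longer a DEG with scaling to nuclear protein-coding genes. RPLP0, a ribosomal protein gene, was higher (log2 fold change 0.32), and TUBB, a tubulin gene, and POLR2A, the large subunit of RNA polymerase II, were lower (-0.16 and -0.21). Without a sample, RPLP0 kept its call in 3, TUBB in 2 and POLR2A in 1 of the 6 fits, and RPLP0 turned to -0.02 with the transcript of the highest mean. ACTB, the other common reference, stood at 2254, 2536 and 2572 FPKM against 1930, 2219 and 1910 FPKM (log2 fold change 0.28, limma with Benjamini-Hochberg adjusted p = 0.03597). Its call was kept in 2 of the 6 fits without a sample and lost with scaling to nuclear protein-coding genes (0.24, limma, adjusted p = 0.06798). With the transcript of the highest mean the ACTB value turned to -1.70 and did not pass (limma, adjusted p = 0.5592).

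**Figure D3:**
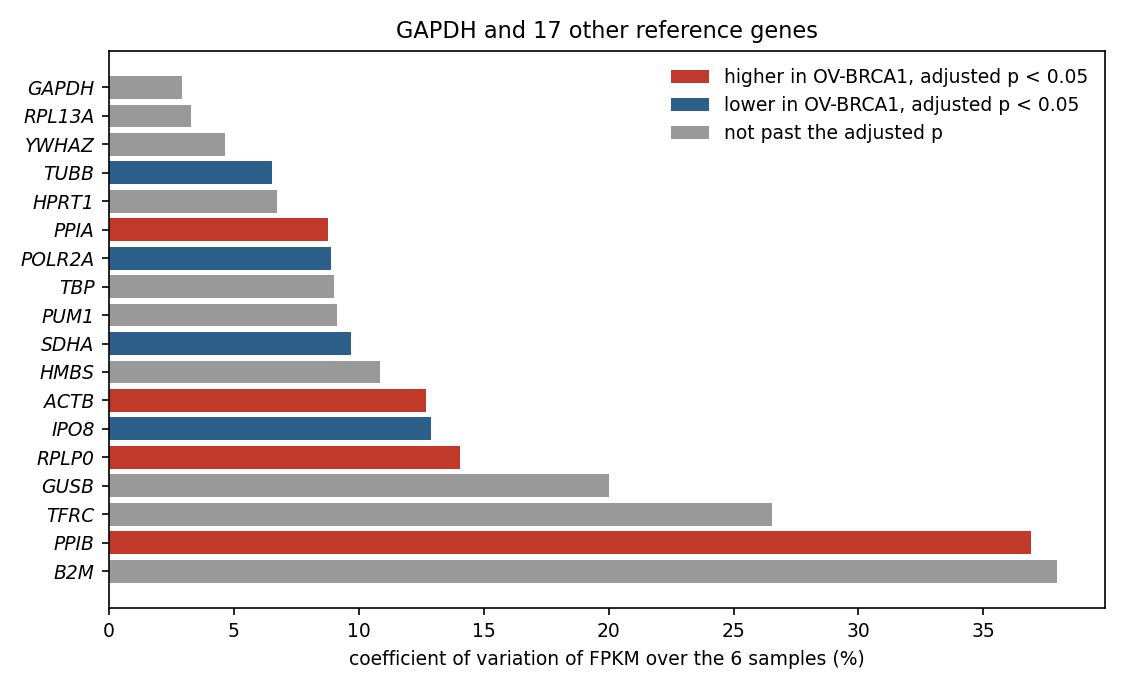
Bars give the coefficient of variation of FPKM over the 6 samples (x axis, percent) for GAPDH and 17 other reference genes, colored by the adjusted p below 0.05 and its direction in the OV-BRCA1 group. GAPDH has the shortest bar at 2.91% and B2M the longest shown at 38.0%; 8 genes are colored as higher or lower.

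The choice of reference changed the relative values of the other genes. Relative to GAPDH, HK2 was 2.13-fold and PFKP 1.37-fold of the NC mean, and relative to ACTB they were 1.79-fold and 1.16-fold. PKM was 1.13-fold relative to GAPDH and 0.954-fold relative to ACTB. The 5 protein-coding genes with the profile most like that of GAPDH over the 6 samples, by the root mean square difference of centered log2(FPKM + 1) values among 1387 genes with a mean of at least 50 FPKM, were RPL26, IGFBP7, BTF3, CIB1 and AUP1 (0.0212 to 0.0249).

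AC006064.4 is annotated as an antisense gene that overlaps GAPDH, and it was listed at 118, 80.6 and 93.9 FPKM in the OV-BRCA1 samples and at 139, 166 and 174 FPKM in the NC samples. The use of strand in the quantification is not given in the sources used here, so fragments of GAPDH and of its antisense gene cannot be told apart. At these values the antisense gene was small beside GAPDH. The 62 processed pseudogenes named after GAPDH summed to 4.12 to 5.44 FPKM, at most 0.191% of GAPDH, and the 6 named after LDHA to at most 0.689% of LDHA. For the other 8 genes this share was at most 0.204%.

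PGK1 (ENSG00000102144, chrX:77910739-78129296) makes the first ATP of the pathway. Its FPKM was 143, 138 and 139 in the OV-BRCA1 samples and 144, 149 and 154 in the NC samples. All NC samples were above all OV-BRCA1 samples by a narrow margin, and the log2 fold change of -0.09 (95% confidence interval -0.19 to 0.02) did not pass the test (limma, adjusted p = 0.167). ENO1 (ENSG00000074800, chr1:8861000-8879250), the enolase that forms phosphoenolpyruvate, stood at 809, 752 and 711 FPKM against 752, 786 and 819 FPKM. The ENO1 groups overlapped, with a log2 fold change of -0.05 (95% confidence interval -0.20 to 0.09, limma, adjusted p = 0.5263).

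While the ENO1 sum differed little, its division between transcripts differed widely from sample to sample. The protein-coding ENST00000234590 was listed at 473, 423 and 67.6 FPKM in the OV-BRCA1 samples and at 76.4, 300 and 321 FPKM in the NC samples, while ENO1-203, annotated as a retained intron transcript, stood at 323, 316 and 538 against 617, 471 and 482 FPKM. OV-BRCA1 sample 3 and NC sample 1 were low in the coding transcript and high in ENO1-203, so this exchange did not follow the groups. The transcripts differ in length (1781 and 2548 bases), and a shift between them changes the summed FPKM. With the length-weighted sum, added once the data were known, ENO1 was lower in the OV-BRCA1 group (log2 fold change -0.14, limma, adjusted p = 0.02513). With protein-coding transcripts only it was 0.49 without passing the test (limma, adjusted p = 0.5884). With the transcript of the highest mean it was -0.45 and did not pass either (limma, adjusted p = 0.2637).

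Pyruvate kinase makes the last ATP of the pathway. PKM (ENSG00000067225, chr15:72199029-72231822) stood at 1990, 2172 and 1874 FPKM in the OV-BRCA1 samples and at 1693, 1778 and 1736 FPKM in the NC samples. The groups did not overlap, but the lowest OV-BRCA1 sample was close to the highest NC sample (2012 ± 150 and 1735 ± 42.7, SD, n = 3 each). The log2 fold change of 0.21 (SE 0.06) passed narrowly (limma with Benjamini-Hochberg adjusted p = 0.03756). It no longer passed in 5 of the 6 fits without a sample (0.15 to 0.23), all but the fit without OV-BRCA1 replicate 3 (0.26), nor with scaling to nuclear protein-coding genes (0.17, limma, adjusted p = 0.08888), without a filter (0.21, limma, adjusted p = 0.1643), with protein-coding transcripts only (0.34) or with the transcript of the highest mean (0.19).

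PKM transcripts carry one of a pair of mutually exclusive exons. The M1 exon is typical of muscle and brain, and the M2 exon of proliferating and tumor cells. Both exons have 167 bases on the minus strand of GRCh38 and encode the same stretch of the protein, and they are printed from GENCODE transcripts in the direction of transcription, with the 62 bases that differ between them in capitals (62.9% identity).
PKM M1 exon chr15:72203022-72203188: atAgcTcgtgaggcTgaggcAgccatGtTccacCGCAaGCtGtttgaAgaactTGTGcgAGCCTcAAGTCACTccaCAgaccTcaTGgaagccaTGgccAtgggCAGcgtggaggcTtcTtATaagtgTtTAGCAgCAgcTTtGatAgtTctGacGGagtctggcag
PKM M2 exon chr15:72202454-72202620: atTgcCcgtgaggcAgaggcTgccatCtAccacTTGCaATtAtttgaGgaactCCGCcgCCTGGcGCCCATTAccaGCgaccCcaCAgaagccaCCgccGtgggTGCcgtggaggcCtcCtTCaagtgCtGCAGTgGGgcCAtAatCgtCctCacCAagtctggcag

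The 4 transcripts with the M2 exon summed to 1334, 1302 and 1271 FPKM in the OV-BRCA1 samples and to 1182, 1057 and 1170 FPKM in the NC samples. The 6 transcripts with the M1 exon summed to 217, 197 and 220 FPKM against 137, 195 and 206 FPKM. The M2 exon therefore led in every sample, and its share of the M1 and M2 sum was 86.0 ± 0.792% in OV-BRCA1 samples and 86.4 ± 2.82% in NC samples (SD, n = 3 each), a difference smaller than the spread between samples. The 15 transcripts with neither exon held the rest. PKM-219, the transcript with 63.9% of the FPKM of the gene, carries the M2 exon and is annotated as subject to nonsense-mediated decay, so its assignment is an estimate of the quantification and not evidence of the protein made.

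LDHA (ENSG00000134333, chr11:18394388-18408425) encodes the lactate dehydrogenase subunit that favors the reduction of pyruvate to lactate. Its FPKM was 796, 951 and 780 in the OV-BRCA1 samples and 777, 797 and 730 in the NC samples. OV-BRCA1 sample 2 was high and the groups overlapped (log2 fold change 0.13, 95% confidence interval -0.08 to 0.33, limma, adjusted p = 0.2814). With samples left out in turn, the LDHA value was 0.04 to 0.18, lowest without OV-BRCA1 replicate 2, and 0.30 with the transcript of the highest mean (limma, adjusted p = 0.05686). LDHB, the subunit gene that is typical of oxidative tissues, rose from 109, 89.9 and 84.6 FPKM to 135, 156 and 136 FPKM (log2 fold change 0.59, limma with Benjamini-Hochberg adjusted p = 0.007618). It did not pass with protein-coding transcripts only (0.55, limma, adjusted p = 0.1011) or with the transcript of the highest mean (1.20, limma, adjusted p = 0.5541). LDHB made up 14.5 ± 0.358% of the sum of LDHA and LDHB in OV-BRCA1 samples and 10.9 ± 1.16% in NC samples.

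**Figure D4:**
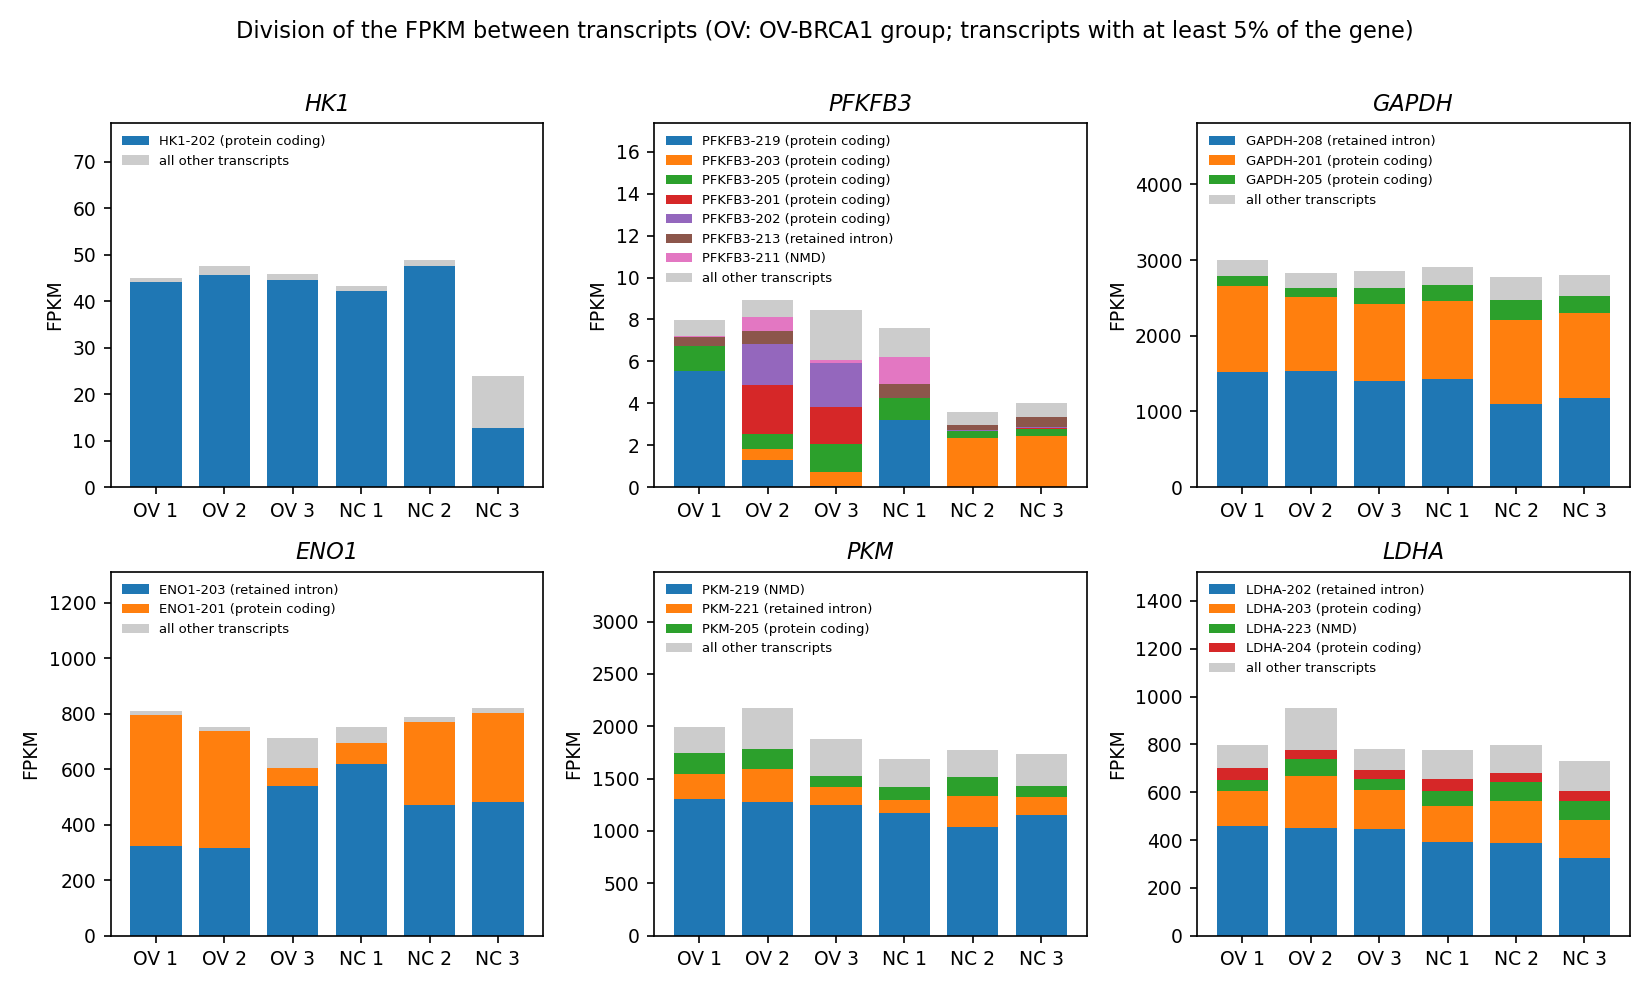
Stacked bars give the FPKM (y axis, from 0) of HK1, PFKFB3, GAPDH, ENO1, PKM and LDHA in each sample, divided between the transcripts that hold at least 5% of the gene and all others (gray), with the annotated transcript type in brackets. HK1 drops in NC sample 3, the protein-coding part of ENO1 shrinks in OV-BRCA1 sample 3 and NC sample 1, and transcripts of non-coding type hold large parts of GAPDH, ENO1, PKM and LDHA.

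Transcripts of non-coding annotation type held much of the most abundant genes. Transcripts annotated as protein coding made up 44.1 to 56.4% of GAPDH over the samples, 14.8 to 59.0% of ENO1, 27.0 to 30.4% of LDHA and 9.56 to 13.7% of PKM, whereas they made up at least 91.5% of HK1, HK2, PFKP and PGK1. GAPDH-208, a retained intron type, held 47.5% of GAPDH, and LDHA-202, of the same type, held 50.8% of LDHA. Of the 30 transcripts that held at least 5% of their gene, 26 were tested on their own and 2 passed, the main transcripts of HK2 and PFKP, both higher, beside 5.47% of all single transcripts tested.

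**Figure D5:**
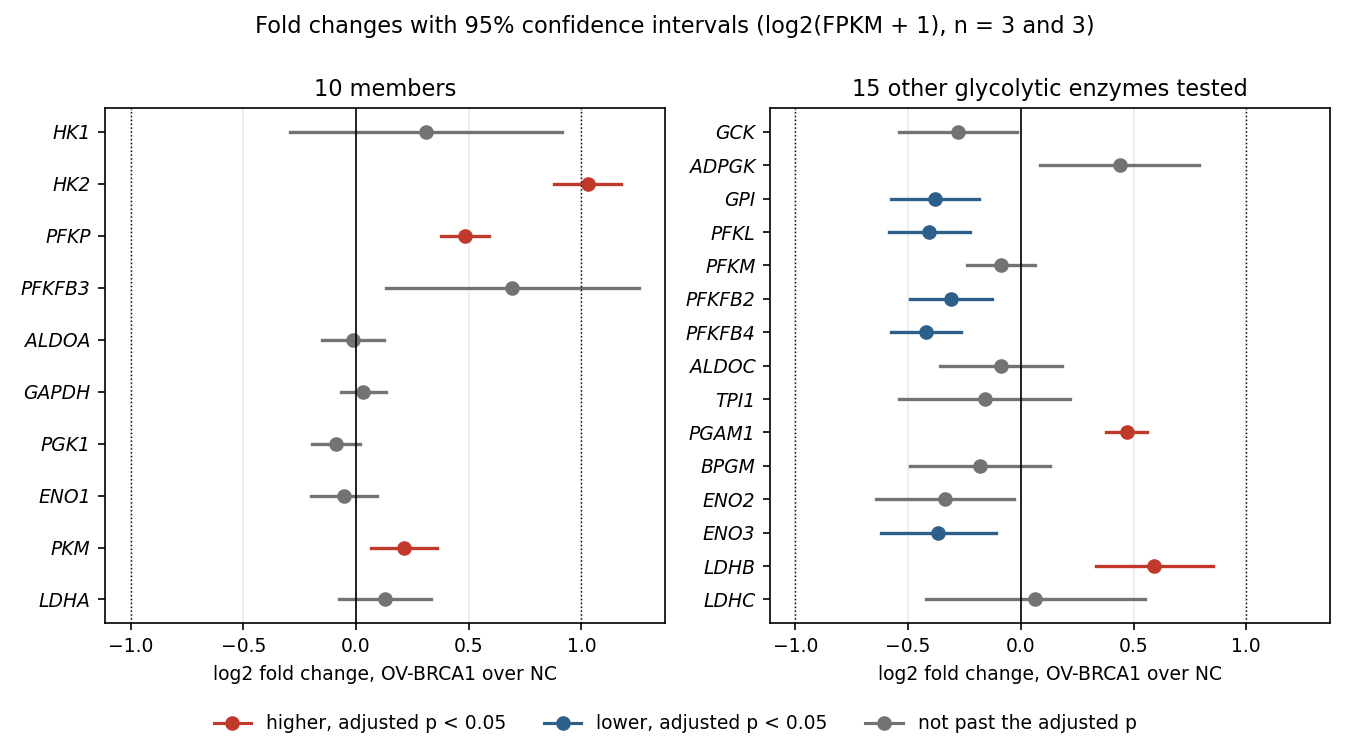
Points are log2 fold changes of FPKM + 1 (x axis, OV-BRCA1 over NC) and lines their 95% confidence intervals, for the 10 glycolysis genes (left) and the 15 other glycolytic enzymes tested (right); dotted lines mark -1 and 1. HK2 at 1.03 is the only point beyond a dotted line, while GAPDH lies at 0.03 (-0.01 with scaling to nuclear protein-coding genes).

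The other enzymes of the pathway were split. Of 23 genes, 15 were tested, of which 2 rose and 5 fell in OV-BRCA1 samples (16.4% and 18.9% of all genes tested), and their median log2 fold change was -0.18. PGAM1, the phosphoglycerate mutase between PGK1 and ENO1, rose from 235, 228 and 234 FPKM to 329, 321 and 317 FPKM (log2 fold change 0.47, limma with Benjamini-Hochberg adjusted p = 0.0003358). LDHB was the other gene that rose, and PFKL and PFKFB4, described with their isozymes, were among the 5 that fell. Genes below the filter included HK3, HKDC1, PFKFB1, GAPDHS, PGK2, PGAM2 and PKLR.

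Among 21 genes of glucose and lactate transport and of pathway control, 18 were tested, 6 rose and 3 fell in OV-BRCA1 samples (16.4% and 18.9% of all genes tested), and the median log2 fold change was 0.09. With samples left out in turn, 6 to 9 of these genes passed, and the number that fell was 1 or 2. TXNIP, a brake on glucose uptake that is itself induced by glucose, was the only DEG of this list, at 46.5, 45.4 and 45.5 FPKM against 19.1, 19.0 and 18.7 FPKM (log2 fold change 1.23, limma with Benjamini-Hochberg adjusted p = 1.489e-05). Its paralog ARRDC4 rose from 2.93 ± 0.0283 to 5.06 ± 0.105 FPKM (log2 fold change 0.62). The glucose transporter gene SLC2A1, which encodes GLUT1 and supplies hexokinase, rose from 26.7, 25.7 and 27.2 FPKM to 42.2, 39.9 and 40.7 FPKM (log2 fold change 0.61, limma with Benjamini-Hochberg adjusted p = 0.0003998). The lactate transporter gene SLC16A1 rose from 45.6 ± 2.58 to 68.1 ± 10.6 FPKM (log2 fold change 0.56). It turned to -1.23 with the transcript of the highest mean, a value that did not pass (limma, adjusted p = 0.6374).

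The pentose phosphate pathway branches off after hexokinase and yields NADPH and ribose. All 7 of its genes were tested, none rose and 3 fell in OV-BRCA1 samples (16.4% and 18.9% of all genes tested), with -0.17 as the median log2 fold change. PGLS, a lactonase, fell from 45.5, 46.8 and 52.7 FPKM to 38.0, 32.8 and 31.8 FPKM (log2 fold change -0.49, limma with Benjamini-Hochberg adjusted p = 0.007845; -0.52 and 0.05412 with protein-coding transcripts only). TALDO1, the transaldolase, had a log2 fold change of -0.17, and the call of TALDO1 was kept in 2 of the 6 fits without a sample.

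The 18 genes that are known to be induced by hypoxia outside glycolysis were all tested, and 9 rose and 2 fell in OV-BRCA1 samples, with 0.29 as their median log2 fold change, where 16.4% of all genes tested rose and 18.9% fell. The 9 include CA12, which met the filter on low values only through the OV-BRCA1 samples. ANGPTL4, a secreted regulator of lipoprotein lipase, rose from 6.97, 5.77 and 6.22 FPKM to 17.0, 16.7 and 17.2 FPKM (log2 fold change 1.30), and ADM, which encodes the vasodilator adrenomedullin, rose from 34.2 ± 0.827 to 78.9 ± 10.1 FPKM (1.18). Both were DEGs. P4HA1, a collagen prolyl hydroxylase subunit (0.94), and BNIP3, a mitophagy receptor (0.83), also rose. With the transcript of the highest mean, ANGPTL4 (1.15) and P4HA1 (0.68) did not pass (limma, adjusted p = 0.31 and 0.5577). BHLHE40, a transcriptional repressor of the clock, went against them, from 139, 139 and 138 FPKM to 71.4, 72.4 and 74.1 FPKM (log2 fold change -0.93, limma with Benjamini-Hochberg adjusted p = 2.527e-05). HIF1A, the gene of the HIF-1 alpha subunit, which was named after its values had been seen, stood at 150, 159 and 160 FPKM against 153, 158 and 135 FPKM and did not pass the test (limma, adjusted p = 0.4242). HIF1A passed with the length-weighted sum (0.21, limma, adjusted p = 0.0318), with protein-coding transcripts only and with the transcript of the highest mean.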

How the data were processed

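The authors filtered the reads for quality and deposited FPKM values per transcript, 199167 transcripts of 58174 genes in 6 samples. The submitters' processing notes name FastQC, HISAT2 and hg38; the quantification tool and the use of strand are not given in the sources used here. The design allowed for counts, but the files hold FPKM, so the depth was estimated from the low values of 14216 single-transcript genes, 600 to 5000 bases long. Of these low values, 37.1 to 40.7% came within 0.1 of an integer fragment number, so reads could not be recovered.

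Transcripts were matched to GENCODE 29 (198868 found) and FPKM was summed per gene. Groups, taken from the labels, were compared on log2(FPKM + 1) with limma (trend, not robust), two-sided, for 16321 genes (FPKM 0.5 or more in 3 or more samples), with Benjamini-Hochberg adjustment over all of them. A pseudocount of 1 understates the change of low genes. DEGs passed an adjusted p of 0.05 and had a log2 fold change beyond 1 in either direction. The study tested counts with DESeq, which FPKM does not allow. With 3 samples against 3, an exact permutation test cannot go below 0.1. The test was checked on simulated data. Lists were described by counts and medians.

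The glycolysis genes and the lists were chosen with earlier results of these data known. Named were the 10 genes, BRCA1, up to 4 genes with the smallest adjusted p and the DEGs of each other list, ACTB, and the 3 least and 3 most variable reference genes, less 2 genes that are not reported; markers of epithelial, immune, endothelial and fibroblast cells were checked. Alternatives were another pseudocount, other filters, left-out samples, a replicate block, other scalings and other ways to combine transcripts. R 4.3.3, limma 3.58.1, Python 3.11.15, numpy 2.4.6, pandas 2.3.3 and matplotlib 3.10.9 were used.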

Additional observations from a re-analysis of the deposited data

How the results depend on the processing

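HK2 and PFKP were higher with an adjusted p below 0.05 (limma) under all 15 alternatives, at log2 fold changes of 0.99 to 1.11 and 0.44 to 0.67. The number of glycolysis genes past the adjusted p was 3, and 2 to 5 under the alternatives. With the length-weighted sum, added once the data were known, 5 passed (4 higher, 1 lower). With scaling to nuclear protein-coding genes, 0 of them were DEGs, since HK2 came to 0.99 (adjusted p = 0.0001117 from limma, 2.316e-05 to 0.003455 over the alternatives). Each scaling moved the median of all genes by less than 0.1.

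The median log2 fold change of the glycolysis genes was 0.34 with protein-coding transcripts only, 0.29 with the transcript of the highest mean and 0.0587 to 0.2209 with samples left out in turn. The lowest of these was without NC replicate 3, where HK1 came to 0.00. Values close to 0 changed sign. ALDOA was 0.0242 with median-of-ratios scaling, 0.0352 with protein-coding transcripts only, 0.11 with the transcript of the highest mean and -0.054 (without OV-BRCA1 replicate 1) to 0.0213 (without OV-BRCA1 replicate 3) with samples left out. GAPDH was -0.0075 with scaling to nuclear protein-coding genes and -0.16 with protein-coding transcripts only, and ENO1 was 0.49 with the latter. None of these reversed values passed the test. In the alternatives that combine transcripts in another way, the division of fragments between transcripts changes the values by construction. Other causes of these sign changes were not tested.

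The number of reference genes past the adjusted p fell from 8 to 3 without a filter, 3 with the transcript of the highest mean and 1 to 5 with samples left out, where fewer samples were tested. With the transcript of the highest mean, 4 other glycolytic enzymes, 5 transport and control genes and 1 pentose phosphate gene passed. Over all genes, 5764 of 16321 passed, 3694 of 11862 with protein-coding transcripts only and 3291 of 15614 with the transcript of the highest mean. The cause of these drops was not tested.

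The replicate numbers were shared between the groups, but the deviations of same-numbered samples had correlations of -0.0244, 0.025 and 0.0136, so the numbers were not taken to pair the samples. With the replicate number as a block, 3 glycolysis genes and 3 reference genes passed, 4595 of all genes passed, and the median of the glycolysis genes stayed at 0.17. At the estimated depth the counting error of PFKFB3, the lowest gene, was larger than that of the others, and 3 samples a group limit the detection of small differences.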
